A study of Mus musculus with 50 samples.

Results

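The mRNAs described here are 40 listed genes that act when cells enter mitosis and divide: the kinases and cyclins of mitotic entry, the chromosomal passenger complex, the regulators of anaphase, the kinetochore and its checkpoint, the spindle motors, the cytokinesis machinery and a topoisomerase. They were chosen by symbol. Of the 40, 39 had a probe on the arrays (none was listed for Ccnb1), among 19057 genes with a probe. A probe counted as detected on an array at a detection p below 0.05, and 28 of the 39 were detected on at least 3 of the 50 arrays and entered the tests, with 12644 genes in all. These tests are described in the section on processing. Only 10 members were detected on every array, namely Cdk1, Cdca8, Cdc20, Cenpa, Kif23, Kif22, Top2a, Prc1, Mad2l1 and Anln.

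The arrays measured mouse NIH 3T3 fibroblasts, an immortalised embryonic line, carrying an eIF4E gene that is switched on by the steroid mifepristone. eIF4E is the protein that binds the cap at the 5′ end of mRNAs and starts their translation. The groups of the inducible line were no mifepristone and no drug, mifepristone and no drug, mifepristone plus 4Ei-1, an agent that inhibits eIF4E, at doses of 10, 50, 100 or 200 µM, and mifepristone plus 4Ei-4, its less potent analog, at 200 µM, each with 3 cultures. A non-inducible derivative without drug was measured with mifepristone in 3 cultures and without it in 1. RNA of the heavy polysome fraction, which carries several ribosomes per mRNA, and total RNA were taken from each of the 25 cultures after 4 h. The labels do not say whether either line is a single clone or whether replicates were grown apart, so p-values measure the spread among these cultures. All values below are log2 normalized intensities or log2 differences, and the number of arrays limits their precision.

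The labels put the cultures in 4 processing batches. At 50, 100 and 200 µM 4Ei-1 each dose had 1 culture in batch 1 and 2 in batch 2, the mifepristone group had 1 culture in each of batches 1, 2 and 3, and batch 4 held every culture given 4Ei-4 and every culture of the non-inducible derivative. The share of probes detected per array ran from 23.9% to 28.5% in batch 2 and from 32.6% to 39.9% in batch 4. Of 13 fibroblast marker genes with a probe, 11 were detected on every array, Pdgfrb on 48 and Postn on 1. No marker of the epithelial, leukocyte, endothelial or muscle and fat lists was detected on every array. Some of these were detected on part of the arrays, such as Cd14 on 47, Csf1r on 32, Des on 29, Krt14 on 24 and Kdr on 22. The targeted gene, Eif4e, was detected on 17 of 50 arrays. With mifepristone the inducible line read 4.68, 4.65 and 5.03 in total RNA for Eif4e, against 4.39, 4.61 and 4.63 without it, a difference of 0.39 ± 0.20 (SE) with a limma adjusted p of 0.655. On polysomes the difference went the other way, -0.50 ± 0.26 (adjusted p = 0.644), and in polysome minus total it was -0.90 ± 0.33 (adjusted p = 0.994, unadjusted p = 0.0131). The labelled induction was therefore not called by this probe, which lies near background.

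Genes of this class are silent in resting cells and are transcribed from late S phase to mitosis. The MuvB complex binds their promoters through a short sequence called the cell cycle genes homology region, or CHR, whose core letters are TTTGAA, and with B-Myb and FoxM1 it turns them on, often beside CCAAT boxes bound by NF-Y. Because this transcription is periodic, their mRNA in a growing culture follows the share of cells in G2 and mitosis. Several of the proteins, such as cyclin B and Cdc20, are later destroyed through the anaphase-promoting complex. In a bulk culture, fewer cells in these phases and less RNA per such cell cannot be told apart.

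The promoters were examined for this shared element because the members are known to be regulated together. Promoter sequence from 250 bases before to 50 after the annotated start was matched by symbol for 34 of the 40 genes in a RefSeq table (GRCm38.p6). TTTGAA on either strand was found in 25 of these 34, or 73.5%, against 20.2% of all 27025 genes in the table. In 24 members an element began within 50 bases of the start, which is 70.6% of the 34 against 5.72% of all genes. CCAAT on either strand was present in 26 members (76.5%, against 41.1% of all genes), and both motifs in 22 (64.7%, against 8.97%). Of the other mitotic genes listed for comparison, 35 of 59 with a promoter held TTTGAA, and of the G1/S and DNA replication genes 4 of 35 did. The stretches that hold the element nearest the start are printed for 9 of the 10 genes whose values are given in full, with the CHR letters in capitals (TTCAAA is the same element on the other strand), 5′ to 3′ along the gene:
Cdk1, chr10:69352910-69352939, minus strand: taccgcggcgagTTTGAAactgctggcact
Plk1, chr7:122159453-122159482, plus strand: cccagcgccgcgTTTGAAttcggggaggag
Aurka, chr2:172370521-172370550, minus strand: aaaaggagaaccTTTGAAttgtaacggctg
Cdc20, chr4:118437344-118437373, minus strand: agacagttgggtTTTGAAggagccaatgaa
Bub1b, chr2:118598231-118598260, plus strand: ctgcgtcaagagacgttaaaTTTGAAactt
Cenpa, chr5:30666890-30666919, plus strand: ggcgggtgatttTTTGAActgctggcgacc
Kif22, chr7:127042420-127042449, minus strand: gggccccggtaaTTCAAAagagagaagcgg
Kif23, chr9:61946780-61946809, minus strand: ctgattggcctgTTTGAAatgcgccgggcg
Top2a, chr11:99024195-99024224, minus strand: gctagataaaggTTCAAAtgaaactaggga

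In Cdk1, Cdc20, Kif22 and Top2a the printed element begins 15, 18, 17 and 23 bases before the annotated start. In the other 5 it begins after the start, within the first transcribed bases, at position 3 in Kif23 and position 41 in Bub1b. A CCAAT box lay upstream of the element nearest the start in 22 members, at a median distance of 28.5 bases, and in 13 of them 20 to 40 bases separated the pair. Mad2l1, Birc5, Plk4, Nuf2 and Pttg1 held neither the element nor CCAAT in this window. Ccnb1, Bub1, Cenpe and Nek2 lacked the element but held CCAAT. Letters in this window are a description, and binding was not measured.

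**Figure D1:**
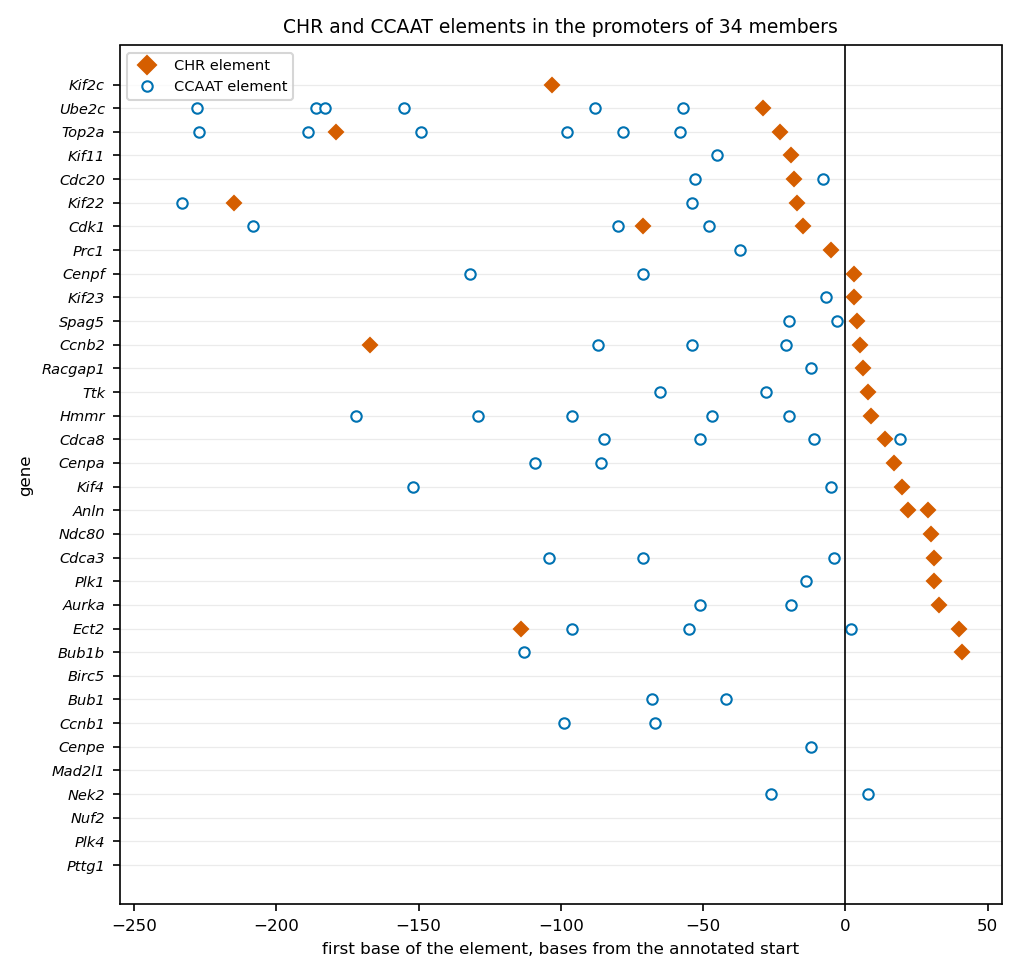
Positions of CHR (orange diamonds) and CCAAT (open blue circles) elements, in bases from the annotated start (vertical line at 0), for the 34 members with a tabulated promoter, 1 gene a row. The elements nearest the start of 24 of the 25 genes with a CHR lie within 50 bases of it, with CCAAT boxes mostly upstream.

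Before any comparison of groups, the spread of these mRNAs over the 25 cultures was described. The median SD of the 10 members detected on every array was 0.87 in polysome RNA and 0.83 in total RNA, against 0.49 and 0.37 for the 4807 genes detected on every array. The members' median exceeded the SD of 91.1% and 97.1% of those genes. In polysome minus total RNA of the same culture, a measure of ribosome loading called translational efficiency here, their median SD was 0.46 against 0.41, above 61.8% of the genes. Without the culture that stood highest, replicate 1 without mifepristone, the median SDs were 0.85, 0.76 and 0.46. Single members differed in this. Cdca8 had an SD of 0.23 in polysome minus total against 0.89 on polysomes and 0.84 in total RNA, whereas Mad2l1 had 0.78 against 0.69 and 0.55, and Kif23 0.72 against 0.85 and 0.56.

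The median of the 10 members' deviations from their own means placed each culture. On polysomes it was 1.59, -0.87 and -0.29 in the cultures without mifepristone and -0.20, -0.80 and -0.52 with it. It was -1.06, -0.82 and -0.13 at 10 µM 4Ei-1, 0.56, -0.63 and 1.04 at 50 µM, 1.13, -0.89 and 0.98 at 100 µM, and 1.12, 1.19 and 0.77 at 200 µM. It was -0.40, -0.45 and -1.0 with 4Ei-4, and 0.32, -0.10 and -0.16 in the non-inducible line with mifepristone, whose culture without mifepristone read -0.05. Replicates were spread most widely without mifepristone and at 50 and 100 µM 4Ei-1, and there they differed by about as much as group means did, or more. At 200 µM 4Ei-1 all cultures were high. Replicate 2 was the lowest culture at 50 µM for 9 of the 10 members and at 100 µM for 10 of 10, in both fractions. Replicate 1 without mifepristone was the highest of all 25 cultures for 5 of the 10 members on polysomes and for 6 in total RNA.

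**Figure D2:**
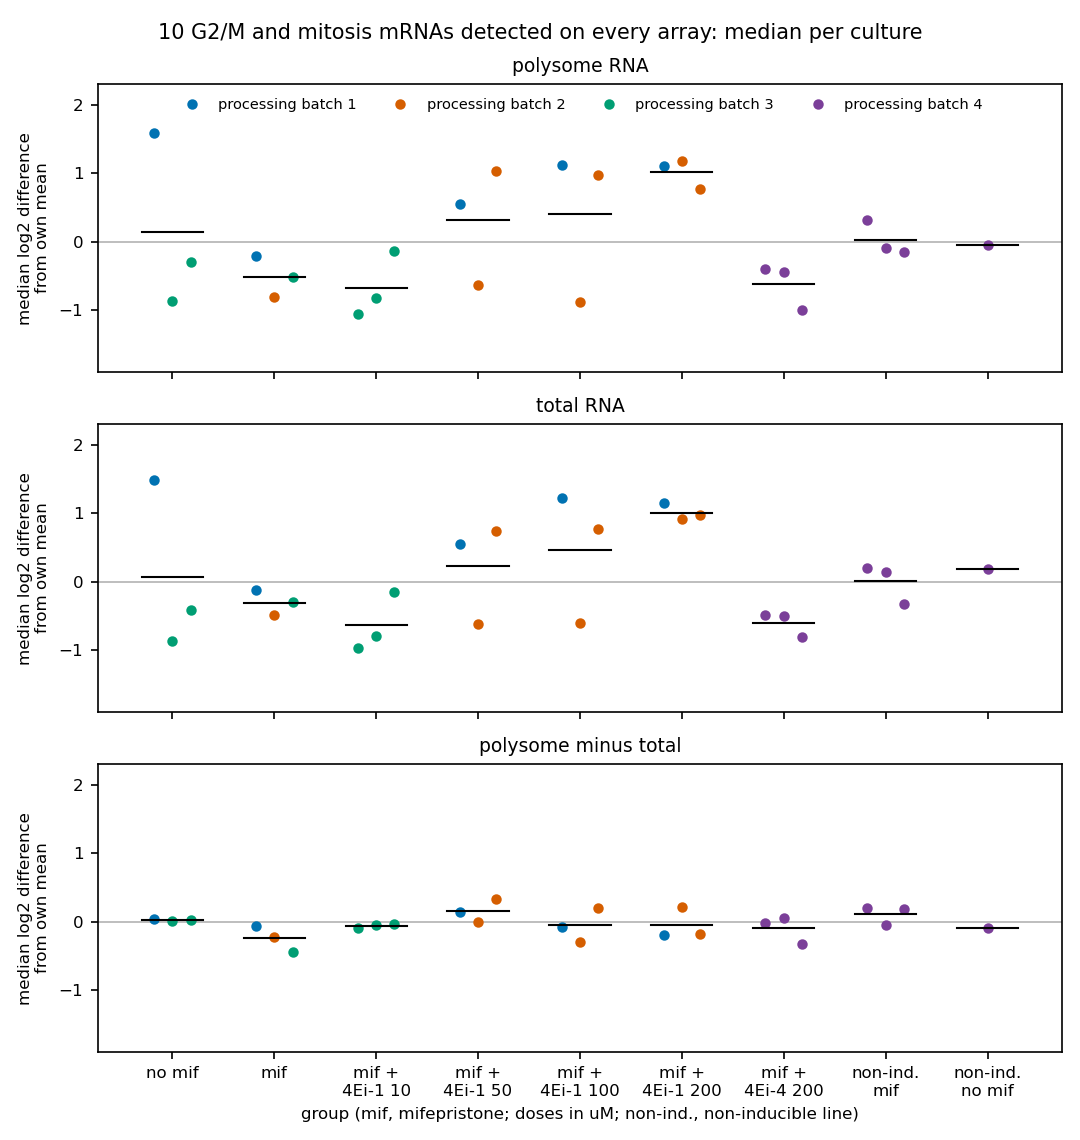
Median deviation of the 10 members detected on every array from each gene's own mean over the 25 cultures (log2), for polysome RNA, total RNA and their difference, by group; points are cultures coloured by processing batch and bars are group means. The cultures at 200 µM 4Ei-1 lie between 0.77 and 1.19 on polysomes, while the difference of the fractions stays between -0.44 and 0.34 in every culture.

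The main comparison asked how these mRNAs behave when eIF4E is inhibited at the highest dose. At 200 µM 4Ei-1 against mifepristone alone, the median difference of the 10 members was 1.37 on polysomes and 1.06 in total RNA, with 10 of 10 higher in both, while the median over all 12644 genes was within 0.05 of 0 in both. Of the 28 tested members, 26 had a higher mean on polysomes and 24 in total RNA, beside 6143 and 6387 of all 12644 genes. The median polysome minus total difference of the 10 was 0.15, with 6 of 10 above 0. No member was called at an adjusted p below 0.05 over all genes, where 0.0158% of genes were called on polysomes, 0.19% in total RNA and 0.403% in polysome minus total. At an unadjusted p below 0.05 there were 16 members on polysomes, 15 in total RNA and 0 in polysome minus total. Of all 12644 genes there were 1615, 1488 and 1696.

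The cultures of the 2 groups did not overlap, with those at 200 µM higher, for 15 of the 28 tested members on polysomes, against 5.61% of all tested genes, and for 17 in total RNA, against 3.53%. Of the 10 members detected on every array this held for 7 and 8. A single member, Plk4, which lies near background, was lower without overlap on polysomes (6.01% of all genes), and 0 were in total RNA (2.86%). Within batch 1 the median difference of the 10 was 1.52 on polysomes and 1.42 in total RNA, and within batch 2 it was 1.77 and 1.34. Without the mifepristone culture of batch 3 (replicate 3), 4 of the 28 members were called in total RNA, and without replicate 1 at 200 µM 1 was. Shares of all genes called with a culture left out are not given, here or below. Such counts therefore do not set the members apart. In simulated arrays with the spread of all genes, 54% of genes changed by 1 and 94% of those changed by 2 were called in this comparison. These rates do not carry over to the members, whose 95% half-widths had a median of 1.03 on polysomes over the 28, against 0.53 for all genes tested.

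Among the entry kinases, Plk1 (polo-like kinase, gene ID 18817), which drives centrosome maturation and mitotic entry, had the largest difference on polysomes. It read 7.17, 5.92 and 6.45 on polysomes with mifepristone alone and 9.21, 9.32 and 8.84 at 200 µM 4Ei-1, a difference of 2.32 ± 0.71 (SE; limma adjusted p = 0.18). In total RNA Plk1 read 6.87, 4.90 and 6.40 against 7.95, 8.14 and 8.08, a difference of 1.86 ± 0.67 (adjusted p = 0.257). It was 0.79 without replicate 2 of mifepristone alone and 2.39 without replicate 1 at 200 µM. Every culture at 200 µM was above every control culture in both fractions.

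Aurka (Aurora A, gene ID 20878), a kinase of the spindle poles, read 7.05, 6.51 and 6.25 on polysomes without drug and 8.65, 8.81 and 8.28 at 200 µM. The groups did not overlap, and the polysome difference was 1.64 ± 0.51 (adjusted p = 0.188). In total RNA the Aurka difference was 1.90 ± 0.50 (adjusted p = 0.127), and 1.02 without replicate 2 of mifepristone alone. Cdk1 (gene ID 12534), the kinase that triggers mitosis with cyclin B, read 7.77, 7.17 and 7.57 against 9.57, 9.21 and 8.65 on polysomes. Its differences were 1.49 ± 0.52 on polysomes and 0.96 ± 0.39 in total RNA (adjusted p = 0.243 and 0.338). In polysome minus total RNA, Cdk1 read 0.36, 0.25 and 0.07 without drug and 0.67, 0.95 and 1.12 at 200 µM, without overlap. The difference was 0.53 ± 0.30 and was not called (adjusted p = 0.459). Of the 28 tested members, 2 were higher and 1 lower without overlap in this measure. The share of all genes without overlap is not given for it.

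In the chromosomal passenger complex, which corrects faulty attachments of chromosomes to the spindle, all 4 tested members had higher means in both fractions. Cdca8 (borealin, gene ID 52276) read 7.79, 7.41 and 7.70 on polysomes without drug and 9.32, 9.46 and 9.41 at 200 µM. The difference was 1.53 ± 0.53 (adjusted p = 0.244), and in total RNA it was 1.14 ± 0.49 (adjusted p = 0.367). The kinase subunit Aurkb, the survivin gene Birc5 and the scaffold Incenp had polysome differences of 1.03, 1.16 and 0.56, beside 1.18, 1.89 and 0.99 in total RNA.

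Of the anaphase regulators, Cdc20 (gene ID 107995), the activator of the anaphase-promoting complex, read 9.14, 8.04 and 8.54 on polysomes against 10.93, 10.20 and 9.93 at 200 µM. The difference was 1.65 ± 0.55 on polysomes and 1.36 ± 0.49 in total RNA (adjusted p = 0.222 and 0.261). That of total RNA was 0.63 without replicate 2 of mifepristone alone and 1.82 without replicate 1 at 200 µM. The other 3 probes of Cdc20 gave polysome differences of group means of 1.51, 2.15 and 2.31, beside 1.78 for the probe used. Over all members, 20 second probes of 13 genes were detected on at least 3 arrays, and 18 had the sign of the probe used on polysomes and 17 in total RNA. Cdca3, which helps destroy the mitosis inhibitor Wee1, had differences of 1.35 on polysomes and 1.70 in total RNA.

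All 5 tested kinetochore and checkpoint genes had higher means on polysomes, 2 of them at an unadjusted p below 0.05, and 4 had higher means in total RNA. Cenpa (gene ID 12615), the histone H3 variant that marks centromeres, read 8.78, 7.42 and 8.63 on polysomes without drug and 9.06, 9.34 and 9.88 at 200 µM, a difference of 1.27 ± 0.60 (adjusted p = 0.387). Within batch 1 the Cenpa difference was 0.28 and within batch 2 it was 2.19. Bub1b (BubR1, gene ID 12236), a component of the spindle checkpoint, read 6.37, 4.64 and 5.87 against 7.87, 6.95 and 5.82, so its groups overlapped. The Bub1b difference was 1.33 ± 0.44 on polysomes and 0.71 ± 0.44 in total RNA (adjusted p = 0.221 and 0.565). That of total RNA was 0.29 without replicate 2 at 200 µM and 1.04 without replicate 3 at 200 µM. The checkpoint gene Mad2l1 had differences of 0.64 and 0.89. Its second probe, detected on 27 arrays, gave differences of group means of -0.59 on polysomes and -0.076 in total RNA, beside 0.23 and 0.97 for the probe used. Those of the kinetochore genes Ndc80 and Nuf2, both near background, were 0.55 and 0.047 on polysomes.

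All 5 tested spindle genes had higher means in both fractions, 3 of them at an unadjusted p below 0.05 in each. Kif22 (Kid, gene ID 110033), a motor that pushes chromosome arms from the poles, read 7.79, 7.47 and 6.82 on polysomes without drug and 10.12, 9.59 and 8.91 at 200 µM. The groups did not overlap, and the differences were 1.68 ± 0.61 on polysomes and 0.97 ± 0.44 in total RNA (adjusted p = 0.265 and 0.393). That of total RNA was 0.45 without replicate 1 of mifepristone alone and 1.37 without its replicate 3. Top2a (gene ID 21973), which untangles sister chromatids, read 8.40, 7.62 and 7.98 on polysomes against 9.08, 8.67 and 7.62, which overlap. The Top2a polysome difference was 0.30 ± 0.50 (adjusted p = 0.87), and its total RNA differed by 0.87 ± 0.47 (adjusted p = 0.503). A second Top2a probe, detected on 9 arrays, gave -0.074 and 0.092 for the group means. Spag5 (astrin) had differences of 1.47 and 1.40, the latter with the smallest adjusted p of any member in total RNA, 0.124.

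Of the cytokinesis genes, Kif23 (MKLP1, gene ID 71819), a motor of the central spindle, read 9.56, 11.17 and 9.44 on polysomes without drug and 11.58, 10.94 and 10.96 at 200 µM. The groups overlapped, and the polysome difference was 0.67 ± 0.38 (adjusted p = 0.481), while that of total RNA was 0.062 ± 0.33 (adjusted p = 0.968). Within batch 1 the Kif23 polysome difference was 2.02 and within batch 2 it was -0.22. Its second brightest probe, detected on 35 arrays, gave differences of group means of 1.40 on polysomes and 0.60 in total RNA, beside 1.10 and 0.22 for the probe used. Prc1, which bundles the central spindle, and Anln (anillin), which scaffolds the contractile ring, had polysome differences of 1.48 and 1.01, beside 1.47 and 1.44 in total RNA. Of the members near background, Cdc25c, the phosphatase that activates Cdk1, had a polysome difference of 0.75 ± 0.30 (adjusted p = 0.315), while Plk4, Ect2 and Tpx2 were at -0.052, -0.066 and 0.21.

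**Figure D3:**
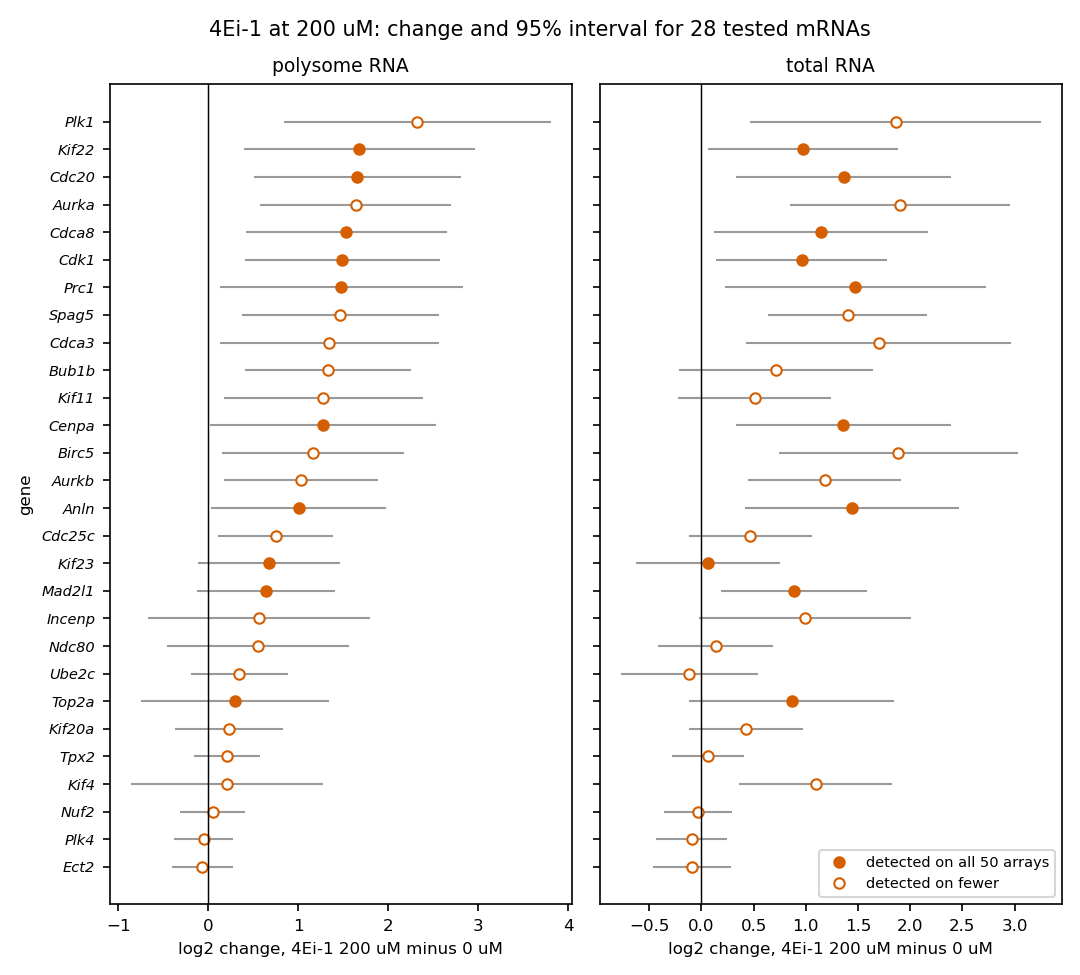
Log2 difference between 200 µM 4Ei-1 and mifepristone alone for the 28 tested members, in polysome RNA (left) and total RNA (right), with 95% intervals; filled points are the 10 members detected on every array. Differences reach 2.32 (Plk1) on polysomes and 1.90 (Aurka) in total RNA, and the lowest 3 on polysomes (Nuf2, Plk4 and Ect2) were detected on 5 to 8 of the 50 arrays.

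Lower doses gave smaller and more scattered differences. The median of the 10 members against mifepristone alone was 0.60 on polysomes and 0.34 in total RNA at 50 µM, and 0.71 and 0.62 at 100 µM. Single cultures moved these medians. At 50 µM they were 0.099 and -0.068 without replicate 3 at that dose, 1.04 on polysomes without replicate 2, and 0.66 in total RNA without the mifepristone culture of batch 3. At 100 µM they were 1.28 and 0.97 without replicate 2, and were 0.27 on polysomes without replicate 3 and 0.18 in total RNA without replicate 1 of mifepristone alone. At 50 µM the groups did not overlap, with drug higher, for 2 of the 28 members on polysomes (2.79% of all genes) and for 0 in total RNA (3.62%), and with drug lower for 0 (3.42%) and 1 (2.83%). At 100 µM drug was higher for 1 and 4 members (5.29% and 3.14% of all genes) and lower for 1 and 0 (6.15% and 2.84%). No member was called at either dose, where 0% and 0.0949% of genes were called on polysomes, 0.158% and 0.482% in total RNA, and 0.0158% and 0.316% in polysome minus total. Without replicate 1 at 50 µM 1 member was called on polysomes, and at 100 µM 1 was called in total RNA without replicate 3 of either group. The shares of all genes called in those fits are not given. At an unadjusted p below 0.05 there were 1 and 2 members on polysomes and 1 and 6 in total RNA at 50 and 100 µM.

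Individual members show how far single cultures set these means. Plk1 on polysomes read 8.15, 6.84 and 9.28 at 50 µM and 9.02, 6.05 and 9.20 at 100 µM, against 9.21, 9.32 and 8.84 at 200 µM. Cdk1 read 8.68, 7.04 and 8.85 at 50 µM and 9.37, 7.07 and 8.77 at 100 µM. Cdc20 read 9.95, 7.95 and 9.93 and then 10.86, 7.89 and 9.88. In each case replicate 2 was at the level of the cultures without drug while the other cultures were nearer to those at 200 µM.

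At 10 µM the median of the 10 members was 0.42 on polysomes and 0.23 in total RNA with batch in the fit, but -0.13 and -0.33 within batch 3, the only batch that holds both groups. It was 1.54 and 1.43 without the mifepristone culture of batch 3 (replicate 3). Plk1 read 5.82, 6.22 and 6.71 on polysomes at 10 µM, and Cdk1 read 7.01, 7.35 and 8.07. At this dose no gene was called (0% in each fraction). An unadjusted p below 0.05 was found for 0 members on polysomes and 1 in total RNA (136 and 161 of all genes). The slope over the 5 doses was 0.58 per 100 µM on polysomes, 0.49 in total RNA and near 0 in polysome minus total as the median of the 10 members. For the slope none of the 28 was called (0% of genes on polysomes, 0.0395% in total RNA and 0.0237% in polysome minus total), with 11, 13 and 1 at an unadjusted p below 0.05. Such a p was found for 1498, 1313 and 1496 of all genes. On polysomes the slope was called for 9 members without a batch term and for 11 with the replicate number in its place. The shares of all genes called in those 2 fits are not given, so these counts do not set the members apart.

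The doses 200 and 50 µM are balanced over the batches. Between them the median of the 10 was 0.72 on polysomes (0.76 within batch 1 and 0.68 within batch 2) and 0.75 in total RNA (0.65 and 0.83). Without replicate 2 at 50 µM these were 0.32 and 0.39, and without replicate 3 at 50 µM they were 1.21 and 1.22. None was called (0.245% of genes on polysomes and 0.0395% in total RNA). An unadjusted p below 0.05 was found for 3 and 5 of the 28 (1562 and 1042 of all genes). The groups did not overlap, with 200 µM higher, for 3 and 5 members (3.37% and 3.02% of all genes), and with 200 µM lower for 0 in each (2.71% and 2.6%). In polysome minus total the median was -0.18, 0 members were called (0.237% of genes) and 4 had an unadjusted p below 0.05 (1681 of all genes).

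**Figure D4:**
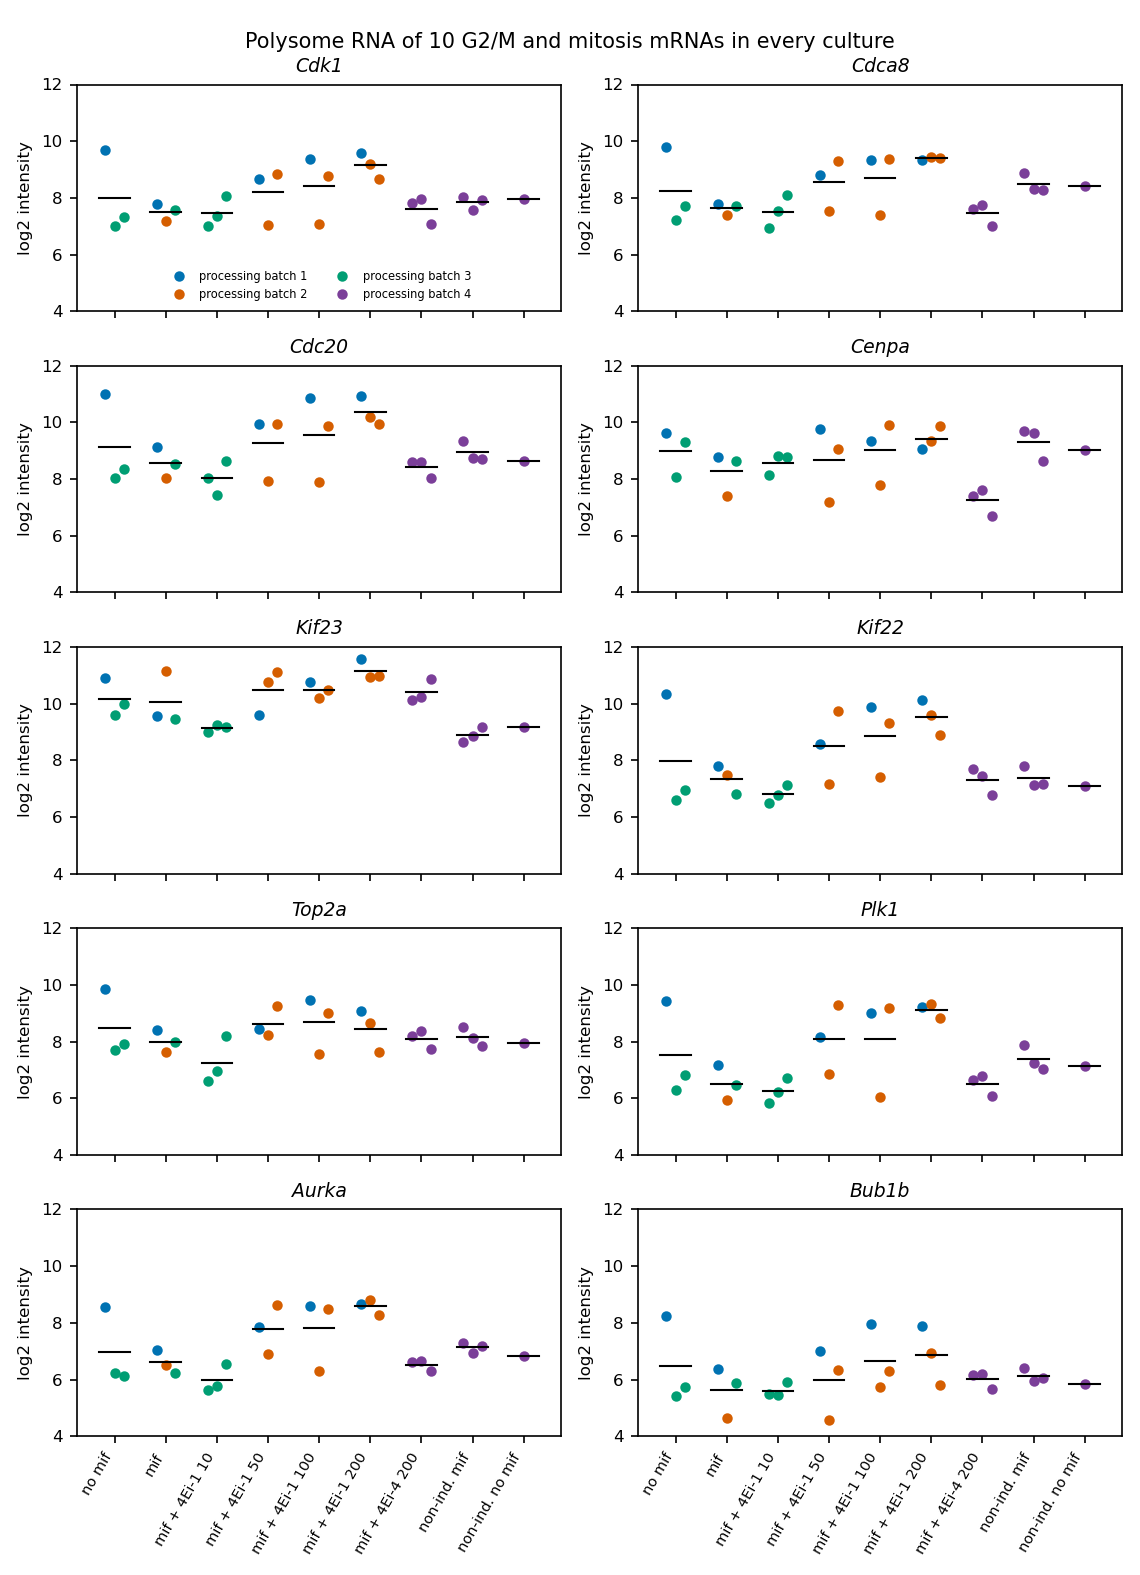
Polysome RNA (log2 normalized intensity) of the 10 members given in full, in every culture of the 9 groups; points are cultures coloured by processing batch and bars are group means. For Plk1, Aurka and Cdca8 the 3 cultures at 200 µM 4Ei-1 are high and close together, whereas for Bub1b and Top2a they are spread. The highest culture of all is at 200 µM 4Ei-1 for Aurka and Kif23, at 100 µM for Cenpa, and replicate 1 without mifepristone (batch 1) for the other genes.

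The analog 4Ei-4 was measured at a single dose, so 200 µM is the only matched dose, and 1 pair of compounds was compared. 4Ei-4 against mifepristone alone gave a median of -0.10 on polysomes and -0.21 in total RNA for the 10 members. No member was called (0% and 0.00791% of genes, and 0.00791% in polysome minus total). At an unadjusted p below 0.05 there were 0 members in either fraction, beside 322 and 358 of all genes. The 4Ei-4 cultures read 6.65, 6.78 and 6.10 for Plk1, 7.82, 7.95 and 7.07 for Cdk1 and 8.62, 8.60 and 8.03 for Cdc20 on polysomes. These overlap the values of mifepristone alone.

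Between the compounds at 200 µM, 4Ei-1 minus 4Ei-4 had a median of 1.64 on polysomes and 1.47 in total RNA over the 10 members, with 10 of 10 higher in each, and 0.15 in polysome minus total. The median was 0.73 on polysomes with the mean of all probes, and 0.76 in total RNA with the log2 values the authors deposited. The groups did not overlap, with 4Ei-1 higher, for 17 of 28 members on polysomes (15.3% of all genes) and 18 in total RNA (13.9%), and with 4Ei-1 lower for 1 (16.9%) and 0 (15%). None of the 28 was called (0% and 0.00791% of genes), and 6 and 10 members had an unadjusted p below 0.05. Of all genes, 793 and 574 did. The difference was 2.47 ± 2.26 (95% half-width) on polysomes for Plk1 (adjusted p = 0.784), 1.87 ± 1.67 for Aurka (0.772), 2.27 ± 1.86 for Cenpa (0.76) and 1.47 ± 1.69 for Cdk1 (0.833). The median half-width over the 10 members was 1.70 on polysomes and 1.49 in total RNA, so these intervals take in values near 0 as well as values above 2. All 4Ei-4 cultures were in batch 4 and all 4Ei-1 cultures at this dose in batches 1 and 2, so drug and batch cannot be told apart.

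Induction of eIF4E by mifepristone without drug gave a median of -0.67 on polysomes and -0.51 in total RNA for the 10 members. Within batch 1 these were -1.73 and -1.60, and within batch 3 they were 0.068 and 0.40. Without replicate 1 of the group that lacks mifepristone they were again 0.068 and 0.40, and without the mifepristone culture of batch 3 they were -1.78 and -1.57. Plk1 on polysomes read 9.45, 6.29 and 6.84 without mifepristone and 7.17, 5.92 and 6.45 with it, and Kif22 read 10.33, 6.62 and 6.96 against 7.79, 7.47 and 6.82. The first culture was high and the others lay near the induced cultures. None of the 28 was called (0.403% of genes on polysomes, 0.625% in total RNA and 0% in polysome minus total), and 4, 1 and 3 members had an unadjusted p below 0.05. Of all genes, 1028, 1023 and 558 did. Without the mifepristone culture of batch 3, 3 members were called in total RNA, and the share of all genes called in that fit is not given.

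In the non-inducible line mifepristone gave a median of 0.16 on polysomes and -0.18 in total RNA for the 10 members, against a group of 1 culture, taken to vary as other groups do. No gene was called in either fraction (0%), and 0 members had an unadjusted p below 0.05. The effect of mifepristone was also tested for a difference between the lines, a comparison added after the data were seen. In limma none was called on polysomes (0.0395% of genes), in total RNA (0.0316%) or in polysome minus total (0%), and 1, 0 and 2 members had an unadjusted p below 0.05.

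Without drug and with mifepristone, the inducible line against the non-inducible line gave medians of -0.47 on polysomes and -0.39 in total RNA. No member was called (2.57% and 6.24% of genes). At an unadjusted p below 0.05 there were 3 and 1 members, beside 1893 and 2487 of all genes. Without the mifepristone culture of batch 3, 1 member was called on polysomes, and the share of all genes called in that fit is not given. The lines were in different batches here. The cultures with 4Ei-4 and the non-inducible line with mifepristone shared batch 4, although line and drug differ together between them. In that comparison 7 of 28 members were called on polysomes, 4 in total RNA and 2 in polysome minus total, against 31.5%, 24.6% and 11.7% of all genes. The members were called no more often than genes at large. Their median 95% half-width on polysomes was 0.95, against 0.49 for all genes tested, so the shares called cannot be compared directly.

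Of the members called in this comparison, 1 was higher and 6 were lower on polysomes, and 1 was higher and 3 were lower in total RNA. In polysome minus total 1 was called each way. Over all genes, 2025 were called higher and 1956 lower on polysomes, and 1595 and 1516 in total RNA. The median of the 10 members was -0.50 on polysomes and -0.61 in total RNA. Cenpa was lower in the inducible line with 4Ei-4, at 7.41, 7.63 and 6.70 on polysomes against 9.68, 9.62 and 8.64, a difference of -2.07 ± 0.56 (adjusted p = 0.00699), and its total RNA was lower by -1.47 ± 0.46 (adjusted p = 0.0218). Kif23 was higher, at 10.13, 10.25 and 10.87 against 8.65, 8.86 and 9.19 on polysomes (1.52 ± 0.35, adjusted p = 0.00216) and by 1.09 ± 0.31 in total RNA (adjusted p = 0.0121). With the mean of its 4 probes Kif23 read -0.074 in total RNA and was not called on polysomes. The total RNA calls of Cenpa and Kif23 each ended without replicate 1 of either group or replicate 2 of the non-inducible line, and that of Cenpa also without replicate 3 of 4Ei-4. Top2a was called in polysome minus total alone, at 0.67, 1.04 and 0.80 against -0.21, -0.37 and -0.05, a difference of 1.05 ± 0.33 (adjusted p = 0.0430). None of the groups in these called differences overlapped, but neither did those of further members that were not called. On polysomes 15 of the 28 tested members were lower and 2 higher without overlap, and in total RNA 14 and 1. The shares of all genes without overlap are not given for this comparison.

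The other called members were named after their values were seen. Mad2l1 read 6.81, 6.84 and 6.51 on polysomes against 8.29, 8.24 and 8.21 (-1.53 ± 0.34, adjusted p = 0.00156), and was also called in polysome minus total (-1.12 ± 0.35, adjusted p = 0.0431). Aurkb was lower on polysomes (-1.11 ± 0.38, adjusted p = 0.0305) and Spag5 in total RNA (-0.98 ± 0.34, adjusted p = 0.0400). The Aurkb call ended without replicate 1 or 3 of either group, and the Spag5 call held only without replicate 3 of the non-inducible line. Plk4 on polysomes and Tpx2 in total RNA were detected on no array of the 4Ei-4 group, and were at least 1.16-fold and 1.18-fold lower there, taking the lowest detected signal of each array as the floor (adjusted p = 0.00340 and 0.0320). Tpx2 was also called on polysomes (-0.64 ± 0.16, adjusted p = 0.00448). The total RNA call of Tpx2 ended without replicate 1 or 2 of either group. Ect2 was detected on 1 of the 6 polysome arrays and has no fold, and its call held only without replicate 3 of the non-inducible line. Leaving out any 1 of the 6 cultures left 0 members called in polysome minus total, 5 or 6 on polysomes, and 0 to 5 in total RNA (0 without replicate 1 of either group or replicate 2 of the non-inducible line).

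Averaged over the 9 groups, the polysome fraction was compared with total RNA of the same cultures, relative to the average probe. Of the 28 tested members, 12 were called higher on polysomes and 4 lower, against 26.9% and 18.2% of all genes (45.1% in either direction). Of the 10 members detected on every array 6 were called higher and 3 lower, beside 2225 and 1437 of the 4807 such genes. The median over the 10 members was 0.36, against 0.19 for all genes detected on every array, and it was 0.27, 0.45, 0.25 and 0.39 within batches 1 to 4. Cdca8 was the highest, at 1.19 ± 0.076 (adjusted p = 1.91e-11), followed by Cdc20 at 0.92 ± 0.11 (adjusted p = 1.33e-07), Aurka at 0.85 ± 0.13, Kif22 at 0.73 ± 0.15, Aurkb at 0.68 ± 0.13 and Plk1 at 0.67 ± 0.10. Cdca8 lay between 0.75 and 1.54 in all 25 cultures. Incenp, Bub1b, Cdk1, Kif11, Top2a and Prc1 were called higher at 0.29 to 0.61.

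The mRNAs called lower on polysomes were Cenpa at -1.09 ± 0.14 (adjusted p = 9.12e-07), Kif23 at -0.61 ± 0.19 (adjusted p = 0.00901), Birc5 at -0.50 ± 0.13 (adjusted p = 0.00356) and Anln at -0.36 ± 0.10 (adjusted p = 0.00294). Cenpa was below 0 in every culture, from -1.97 to -0.03. Probes of a gene did not always give the same answer. The other 2 probes of Birc5 read -0.44 and -0.54 in the mean over arrays, and the second probe of Cdca8 read 0.74. The second brightest probe of Kif23, however, read 0.64 where the probe used read -0.60. A second probe of Anln, detected on 14 arrays, read 0.18 where the probe used read -0.36. Of the 20 second probes detected on at least 3 arrays, 13 had the sign of the probe used in this measure. With the mean of all probes, Kif23 was at 0.067 and Top2a at -0.047, so the direction of these 2 genes rests on the probe.

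**Figure D5:**
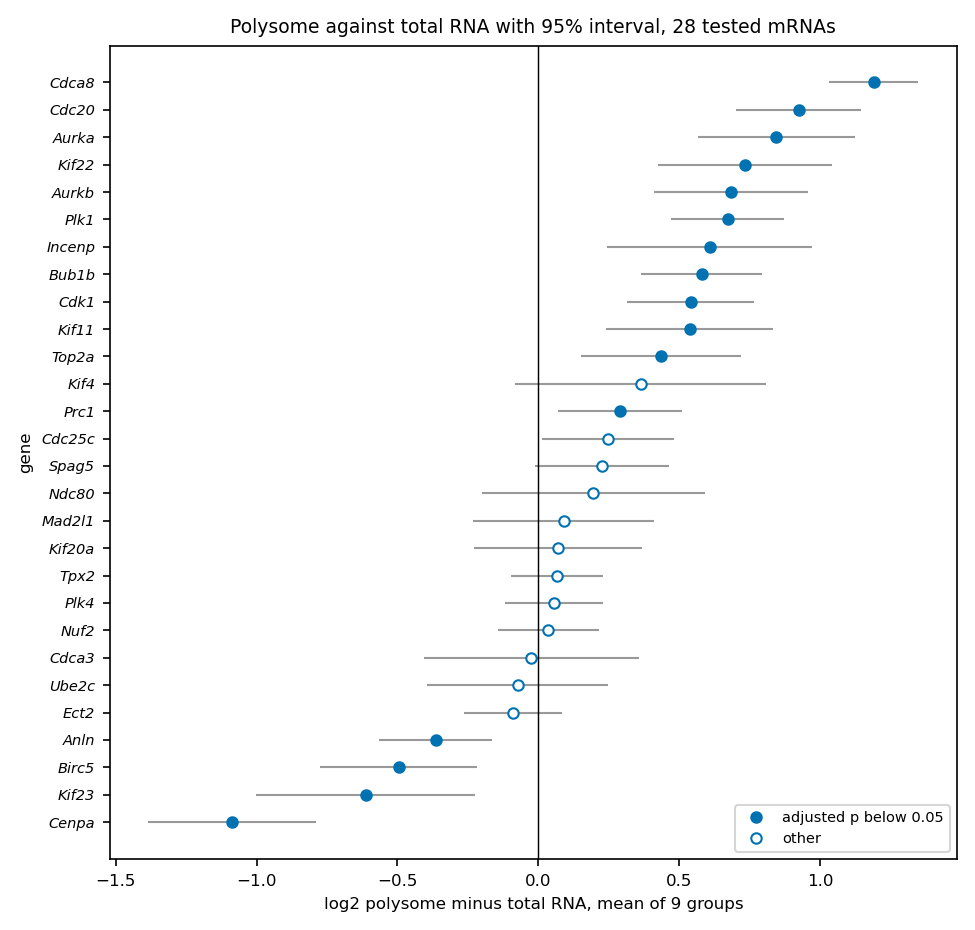
Log2 polysome minus total RNA for the 28 tested members, as the mean of the 9 groups with 95% intervals; filled points have an adjusted p below 0.05. The values run from -1.09 (Cenpa) to 1.19 (Cdca8), with 12 members called above 0 and 4 below.

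Other genes of the cell cycle were read in the same fits, from lists made with earlier results of these data known. Of 58 other mitotic genes tested, 45 had a higher mean on polysomes at 200 µM 4Ei-1 and 49 in total RNA, with a median of 0.35 in each. Of 40 G1/S and DNA replication genes, 29 and 36 were higher, with medians of 0.38 and 0.26. Of 19 genes of the MuvB, B-Myb, FoxM1 and E2F regulators, 11 and 10 were higher, of 12 brakes and regulators of mitotic entry 8 and 9, and of 11 subunits of the anaphase-promoting complex 5 and 7. Of all 12644 genes, 6143 had a higher mean on polysomes and 6387 in total RNA. No gene of any of these lists was called at 200 µM against mifepristone alone.

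Between 200 and 50 µM, Chek2, a checkpoint kinase that holds cells with damaged DNA before mitosis, was called higher on polysomes (0.77 ± 0.16, adjusted p = 0.0417). Anapc11, the RING subunit of the anaphase-promoting complex, was called lower in polysome minus total (-1.26 ± 0.22, adjusted p = 0.0154). The Chek2 call ended in 5 of the 6 fits that left out a culture, all but that without replicate 3 at 50 µM. The Anapc11 call ended without replicate 1 at 200 µM or replicate 3 at 50 µM. In the inducible against the non-inducible line, Ccnd1 (cyclin D1) was called higher by 1.81 ± 0.35 on polysomes and 2.20 ± 0.36 in total RNA (adjusted p = 0.00435 and 0.000710), where batch and line cannot be told apart. Neither Ccnd1 call held with 75th percentile scaling. In total RNA Nfyb was also called higher (1.37 ± 0.39, adjusted p = 0.0357) and Msh6 lower (-0.78 ± 0.20, adjusted p = 0.0256). Leaving out 1 culture at a time altered the Nfyb result in 5 fits and the Msh6 result in 3. In polysome against total RNA, 30 of 40 G1/S genes were called higher and 1 lower, and 18 of 58 other mitotic genes higher and 0 lower. Of all genes tested, 26.9% were called higher and 18.2% lower, and of the 4807 detected on every array 2225 and 1437 were. The highest called values among these lists were Hmgb2 at 1.24 ± 0.15 and Ccnd1 at 1.18 ± 0.085, and the lowest were Anapc13 at -1.51 ± 0.10 and Tfdp1 at -0.71 ± 0.16 (adjusted p = 4.12e-07, 1.11e-10, 3.2e-11 and 0.000617).

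The remaining members could hardly be read. Hmmr and Kif2c were detected on no array, and Ccna2, Ccnb2, Pttg1, Nek2, Racgap1, Bub1, Ttk, Cenpe and Cenpf on 1 or 2 of 50. Ndc80, Cdc25c, Tpx2, Kif20a, Plk4, Nuf2, Ect2 and Ube2c were tested but were detected on 3 to 22 of the 50 arrays. Their values lie near background, which limits how well differences between groups could be measured.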

How the data were processed

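Polysome and total RNA of 25 cultures were hybridised to 50 Illumina bead arrays. For each probe the authors deposited a linear intensity with its detection p-value, as the file headers name them. A further table deposited by the authors holds log2 values of the same arrays, whose scaling the sources used here do not state. The platform table gave 34885 of 45281 probes 1 gene symbol, 18 several and 10378 none, and 34807 were matched by gene ID.

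Intensities were background-corrected by the normal-exponential model (limma 3.58.1, R 4.3.3, offset 16) and quantile-normalized as log2. Each gene had its brightest probe. Polysome, total and polysome minus total values were fitted in limma over all cultures with group and fixed batch terms. Comparisons of batch 4 groups with groups of other batches, and polysome against total, had batch as a random block (statmod 1.5.0, correlations 0.448, 0.407 and 0.172). P-values were Benjamini-Hochberg adjusted over 12644 genes, and "called" means below 0.05. Mean intensity per array was 183 to 436. Fits were tested on simulated data.

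The members and lists were chosen with earlier results of these data known. Values in full are given for the member with the highest mean in each of 7 roles, the 6 with the smallest adjusted p of 21 called in any comparison, and the 4 with the smallest p on polysomes at 200 µM 4Ei-1 among those detected on all 12 arrays compared (10 genes in all). From other lists the 2 largest called changes each way are given. Those of the 4Ei-4 cultures against the non-inducible line are left out. Alternatives were other background and scaling choices, filters, probes, batch terms, the replicate block and left-out replicates. Replicate numbers did not pair the cultures throughout: in 3 of 20 pairs of comparison and measure all 3 correlations of same-numbered deviations exceeded 0.1 (range -0.40 to 0.58). These were 200 µM 4Ei-1 on polysomes, and the induction and 200 against 50 µM in total RNA, in each of which the replicate block called 0 members. No arrays held identical values. The promoter stretch of 1 gene is not reported here.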

Additional observations from a re-analysis of the deposited data

How the results depend on the processing

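Of the alternatives, those without a batch term or with the replicate number in place of batch added the most calls, and the cause was not tested. Shares of all genes called are not given for the alternatives or with cultures left out. The counts in this section therefore do not set the members apart from other genes. For the dose trend 9 members were called on polysomes without a batch term and 11 with the replicate block, and 1 in polysome minus total under each. With the replicate block, 4Ei-1 against 4Ei-4 had 5 members called on polysomes and 1 in total RNA, and the inducible against the non-inducible line 3 and 1, the latter having 2 and 1 without a batch term. For that comparison 1 member was called on polysomes with the mean of all probes and 2 without a filter. In total RNA 1 member was called at 50 and at 100 µM without a filter. With the authors' deposited log2 values, 1 member was called on polysomes and 1 in polysome minus total for 4Ei-4 against no drug, and likewise for 4Ei-1 against 4Ei-4.

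For 4Ei-4 cultures against the non-inducible line, 7 members called on polysomes became 3 among genes detected on every array (fewer members tested) and 4 with the mean of all probes. In total RNA 4 became 7 with 75th percentile scaling, 1 without a batch term, and 2 with the authors' log2 values, the mean of all probes, no background correction or the replicate block. In polysome minus total 2 became 4 with 75th percentile scaling or the authors' values, 1 with quantiles within each fraction, and 0 with batch as a random block, no batch term, no filter or the replicate block. Ect2 on polysomes turned to 0.22 with 75th percentile scaling, which moved the median of all genes by 0.51, and Kif23 in total RNA to -0.074 with the mean of all probes. Called members of polysome against total were 8 of 16 among genes on every array, and with the mean of all probes Kif23 turned to 0.067 and Top2a to -0.047.

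Medians of the 10 members in polysome minus total moved with 75th percentile scaling, to -0.089, -0.33 and -0.13 at 50, 100 and 200 µM, -0.11 for the trend, -0.076 for 4Ei-1 against 4Ei-4, 0.070 for 4Ei-4 against the non-inducible line, -0.037 between the lines and 0.70 for polysome against total (0.70 with quantiles within each fraction, 0.17 with the mean of all probes). Within batch 1 they were 0.069 at 50 µM, 0.066 for 200 against 50 µM and -0.048 for the induction, which was -0.087 with the mean of all probes. The induction medians within batch 1 were -1.73 on polysomes and -1.60 in total RNA, and within batch 3 0.068 and 0.40. At 100 µM the total RNA median was 1.43 within batch 1. For 4Ei-1 against 4Ei-4 it was 0.73 on polysomes with the mean of all probes and 0.76 in total RNA with the authors' values.

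Leaving out each replicate in turn, the medians of the 10 members ranged from 0.22 to 1.54 on polysomes and -0.015 to 1.43 in total RNA at 10 µM, from -0.10 to 0.22 in polysome minus total at 100 µM, from -0.21 to 0.033 for 200 against 50 µM, from -0.056 to 0.25 for 4Ei-1 against 4Ei-4, and for the induction from -1.78 to 0.068 on polysomes, -1.57 to 0.40 in total RNA and -0.38 to -0.064 in polysome minus total. Called members ranged from 0 to 4 in total RNA at 200 µM, 0 to 1 in total RNA at 100 µM and on polysomes at 50 µM, 0 to 1 on polysomes between the lines, 0 to 3 in total RNA for the induction, and 0 to 5 in total RNA and 0 to 0 in polysome minus total for 4Ei-4 against the non-inducible line. Among single members, the total RNA difference of Kif23 ranged from -0.13 to 0.47 at 200 µM and -0.13 to 0.42 for 200 against 50 µM, Bub1b from -0.20 to 0.63, and Top2a on polysomes from -0.0075 to 0.58 and -0.65 to 0.28. At 200 µM the 10 members' median stayed between 1.14 and 1.69 on polysomes, and in total RNA between 0.67 and 1.42. Members whose groups did not overlap at 200 µM numbered 13 to 16 on polysomes and 14 to 17 in total RNA over the 5 other normalizations. With TTCGAA counted beside TTTGAA, 26 members held a CHR element. Detection on fewer than 3 arrays left 11 members with a probe untested. Probes of a gene can differ in this, as for Cdk1, whose probes were detected on 50, 0 and 0 arrays. Why the 11 members were so rarely detected was not tested.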
